A study of Capra hircus with 9 samples.

Results

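The fibroblast growth factor (FGF) genes examined here are 5 secreted ligands (FGF1, FGF2, FGF7, FGF10 and FGF18), 3 receptor tyrosine kinases (FGFR1, FGFR2 and FGFR4) and the carrier FGFBP1. They were taken by symbol from a list of 10 names, of which FGFR3 was not analysed here, so that 9 of the 23499 genes of the table are described. The data are RNA-seq values per gene from the mammary gland of 9 Laoshan dairy goats, a breed kept for milk in China, all healthy, of parity 3 and without any treatment or genetic change. There was 1 library per goat, with 3 goats in late lactation (LL, 240 days postpartum), 3 in the dry period (DP, 300 days postpartum) and 3 in late gestation (LG, 140 days after mating), and DP3, for example, names replicate 3 of DP. The tissue was whole gland collected at slaughter, so each value is a mixture of milk-producing epithelium, stroma, vessels and immune cells. The study asked how the gland adapts as it leaves lactation, rests and grows again before the next lactation, and pairwise comparisons of the stages address these steps. Stages were different goats, so the p-values measure the spread between goats of one stage.

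FGF ligands bind their receptors together with heparan sulfate, a sugar chain on cell-surface and matrix proteins, and the bound receptor signals through adaptor proteins and a chain of kinases. In the mammary gland, FGF7 and FGF10 are known as stromal ligands that act on FGFR2 of the epithelium, and FGF10 and FGFR2 are required for the bud and for branching of the ducts. FGF1 and FGF2 lack a classical secretion signal and bind several receptors, and FGFBP1 releases them from the matrix. A table with 1 value per gene does not separate the receptor splice forms of epithelium and mesenchyme.

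Values were taken as FPKM (fragments scaled to transcript length and sequencing depth), a unit on which levels of different genes can be compared per length. The unit is not named in the table and was read from its values. Whether every row is in this unit was not tested, and comparisons of levels between genes rest on it. A few milk genes took a large share of the summed FPKM, with 80.6% to 86.0% in the 10 highest genes of each LL library against 53.6% to 58.5% in DP and LG libraries. Every log2 fold change below is therefore on the scale of log2(FPKM + 1) after division by a scaling factor per library, which was 0.498 to 0.605 (LL), 1.44 to 1.53 (DP) and 1.20 to 1.31 (LG). Changes of low genes are understated on this scale. A gene was called when its Benjamini-Hochberg adjusted p in limma was under 0.05 over 14701 tested genes and its log2 fold change was at least 1 in size. The tissue label was checked with marker genes. All 10 luminal epithelial markers were above 0 in each stage, and the summed scaled FPKM of the 5 milk protein genes was 501563 to 811887 (LL), 72.4 to 89.4 (DP) and 7228 to 10075 (LG). Of these, CSN1S1, CSN1S2 and CSN3 had nearly the same FPKM in LL1 (90859.5, 90861.2 and 90873.6) and LG1 (1236.37, 1238.63 and 1250.97). In DP they had 27.6, 29.36 and 41.7 (DP1), 22.04, 24.3 and 36.64 (DP2) and 14.48, 17.78 and 29.08 (DP3). The gaps between the 3 genes were of like size in every library, also in DP. In LL and LG the sum thus holds nearly the same value 3 times, and the DP sum repeats a part that moved together. By their means they ranked 5th to 7th in LL, so the share of the 10 highest genes holds them too. The cause was not tested.

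Other cell types moved with the stages. Among 10 fibroblast markers, 9 were called higher in DP than in LL, and their summed scaled FPKM was 248 to 371 (LL), 573 to 2719 (DP) and 561 to 1018 (LG). The highest of these sums was that of DP3, and DP1 and DP2 had 573 and 1029. Among 9 tested immune markers, 4 were higher in DP than in LL and 7 were lower in LG than in DP. The luminal epithelial sum was 1165 to 1311 (LL), 459 to 755 (DP) and 1053 to 1329 (LG). Of 8 endothelial markers, 2 were lower in LG than in DP, and of 8 tested basal and myoepithelial markers TP63 alone was called in DP against LL, where it was higher. In bulk tissue, fewer cells of a type and less RNA per cell cannot be told apart, and the part of these cell types in the results below was not tested.

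The 9 FGF genes covered a wide range of levels. FGF2 had the highest listed FPKM of them in each of the 9 libraries, and by its mean it ranked 45th of all genes in LL, 4th in DP and 6th in LG. These ranks rest on the values of FGF2 as listed, which share a step of 10.33 FPKM in LL and DP, as described below. In LL FGF2 was followed by FGF1 (22.3 ± 6.19 FPKM, SD, n = 3), FGFBP1 (14.4 ± 7.73), FGFR1 (5.65 ± 2.17), FGF7 (1.88 ± 0.547), FGF10 (1.49 ± 0.301) and FGFR2 (1.40 ± 0.511). The libraries of FGF1 and FGFBP1 overlapped in LL, as did those of FGFBP1 and FGFR1 and those of FGF7, FGF10 and FGFR2. In LG the order was FGF2, FGF1, FGF7, FGFR1, FGF10 and FGFR2, of which only FGF10 and FGFR2 overlapped as neighbours. FGFR4 and FGF18 were below the other genes in each stage by their means. In LL the order also went with the position in the table. The 5 genes among its last rows, described below, were all above the other 4 by their means. Whether both parts of the table are on the same scale was not tested, so the order of levels may not hold between them. Of the 9 genes, 7 had at least 0.5 FPKM in at least 3 libraries and were tested. Of these, 6 passed that filter in all 9 libraries, and FGFBP1 reached 0.5 FPKM in 6.

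**Figure D1:**
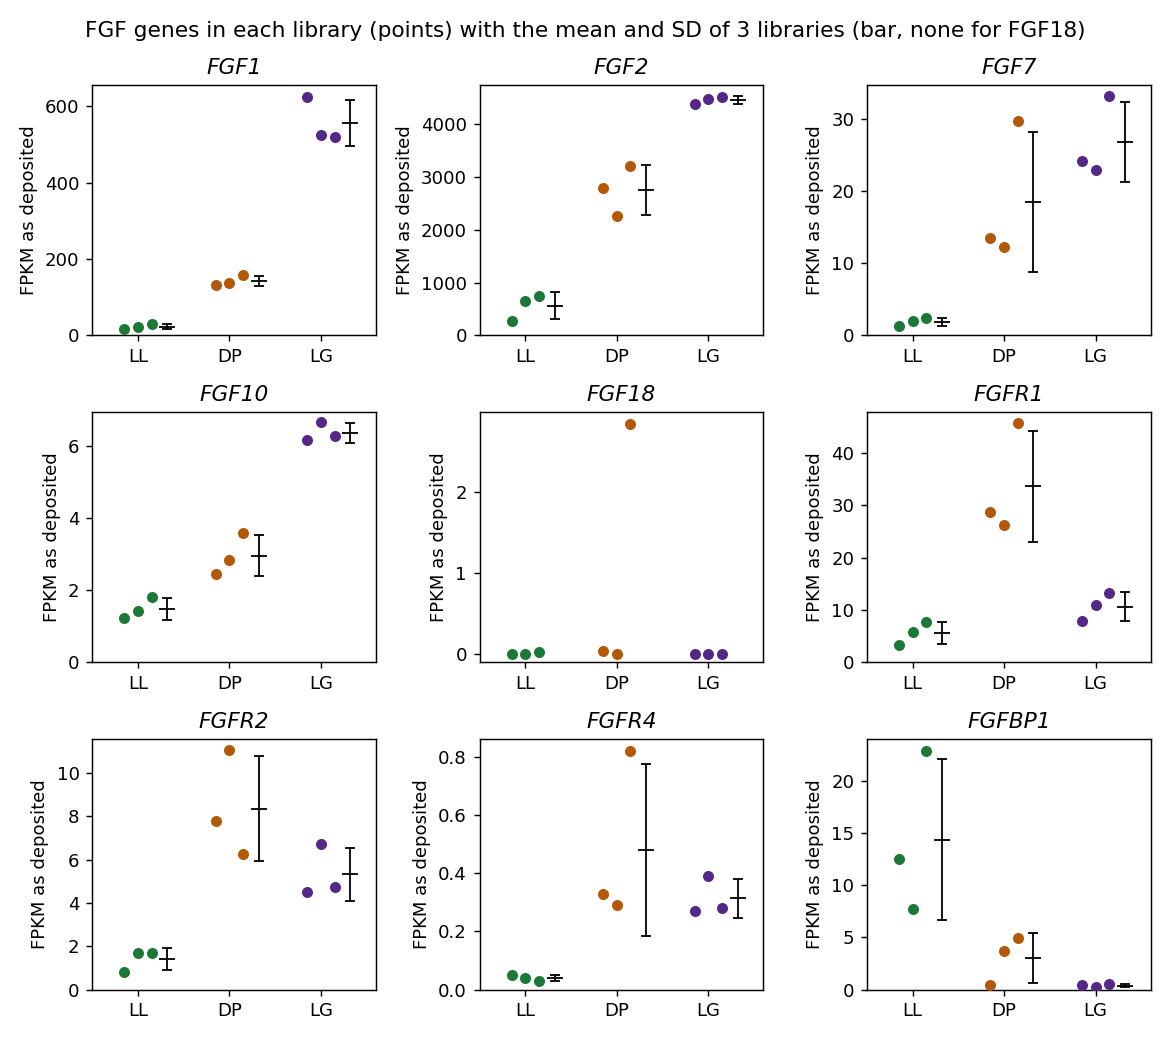
FPKM as deposited (y axis, linear, a separate scale for each gene) of the 9 FGF genes in the 3 libraries of LL, DP and LG. Points are libraries and the bar beside them is the mean with its SD (not drawn for FGF18). FGF1 and FGF2 stepped up from LL to DP and to LG, FGFR1 peaked in DP, and FGFBP1 was high in LL.

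In DP against LL, 4 of the 7 tested genes were called higher (FGF1, FGF2, FGF7 and FGFR1) and FGFBP1 was called lower. Of all tested genes, 13.8% were called higher and 8.79% lower in that comparison. In LG against LL, FGF1, FGF2 and FGF7 were called higher and FGFBP1 lower, against 10.7% and 6.61% of all tested genes. In LG against DP, FGF1 and FGF10 were called higher and FGFR1 lower, against 6.37% and 6.88% of all tested genes. These comparisons share libraries pairwise, so their fold changes are not independent of each other. FGF7 and FGFR1 also belong to lists that the study chose on libraries that include these, so their calls are not independent evidence for those lists.

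FGF1 (chromosome 7, 56787497 to 56900206, in the coordinates of the table, which names no build) binds all FGF receptors. Its FPKM was 16.5, 21.4 and 28.8 in the LL libraries, 132, 138 and 157 in the DP libraries and 626, 524 and 519 in the LG libraries. Every DP library was above every LL library and every LG library above every DP library, and the same held after scaling. The log2 fold change was 1.27 ± 0.19 (SE) from LL to DP, 3.46 ± 0.19 from LL to LG and 2.19 ± 0.19 from DP to LG, with limma adjusted p of 0.00043, 2.6e-06 and 7.4e-05. FGF1 was called in each of the 3 comparisons under all 20 alternative settings.

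FGF2 (chromosome 17, 36227055 to 36278139), a ligand known for its action on fibroblasts and vessels, was listed at 269, 651 and 754 FPKM (LL), 2799, 2262 and 3213 (DP) and 4384, 4490 and 4521 (LG). The stages did not overlap, and LL1 was well under the other LL libraries. The 6 values of LL and DP were whole multiples of 10.33 FPKM (26, 63 and 73 steps in LL and 271, 219 and 311 steps in DP), to the last digit given. Of 16183 genes above 0 in all of these libraries, FGF2 was the only gene whose values shared a step of at least 0.5 FPKM. Its LG values were not multiples of that step, and whether the LG values are on the same scale as the others was not tested, nor was the cause of the steps.

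On the values as listed, the log2 fold change of FGF2 was 1.01 ± 0.30 from LL to DP (limma adjusted p = 0.017), 1.95 ± 0.30 from LL to LG (adjusted p = 0.00067) and 0.95 ± 0.30 from DP to LG, which fell short of the fold threshold (adjusted p = 0.034). The call in DP against LL rested on single libraries. It was lost without LL1 (log2 fold change 0.60), without DP3 (0.88, adjusted p = 0.051) and with scaling factors computed without the last rows of the table (0.96). With each step of 10.33 FPKM counted as 0.01 FPKM, an alternative chosen after seeing the data, it was 0.54 (adjusted p = 0.016) and was not called. The unit of 0.01 is arbitrary, and at such low values the 1 added before log2 shrinks the fold change. This alternative therefore cannot decide how firm the call is. From DP to LG, FGF2 was called without DP3 (1.08) and turned to -0.97 under quantile normalization. NUDT6, which lies next to FGF2 on the opposite strand and overlaps it in antisense in mammals, starts at 36278251 in the table and does not overlap FGF2 there. Its mean was 2.28 ± 0.591 FPKM (LL), 8.55 ± 1.55 (DP) and 6.43 ± 0.469 (LG), and it was not called in any comparison. The library kit did not keep the strand, so reads of overlapping genes on opposite strands cannot be told apart.

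FGF7 (chromosome 10, 42303876 to 42366015), the keratinocyte growth factor of the stroma, had 1.31, 1.93 and 2.40 FPKM (LL), 13.5, 12.3 and 29.7 (DP) and 24.2, 22.9 and 33.1 (LG). All DP and LG libraries were above all LL libraries, while DP3 lay among the LG libraries. The log2 fold change was 1.55 ± 0.29 in DP against LL (limma adjusted p = 0.0019) and 2.36 ± 0.29 in LG against LL (adjusted p = 0.00021). In LG against DP it was 0.81 ± 0.29 (95% interval 0.15 to 1.47, adjusted p = 0.058). DP3 was also the library with the highest fibroblast sum, and without it the log2 fold change was 1.15 in DP against LL and 1.20 in LG against DP, both of which were called. FAM227B overlaps FGF7 on the opposite strand.

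FGF10 (chromosome 20, 30470693 to 30568567), the ligand needed for mammary bud formation, was the lowest of the tested ligands in each stage by its mean. It had 1.23, 1.42 and 1.82 FPKM (LL), 2.45, 2.85 and 3.59 (DP) and 6.16, 6.67 and 6.27 (LG). Some other low genes had values close to these in LL, such as KLB (1.22, 1.53 and 1.83) and FGF13 (1.11, 1.48 and 1.66). In DP these 2 genes were also near FGF10, at 1.6, 2.35 and 2.24 (KLB) and 2.12, 2.31 and 3.21 (FGF13). Other low genes lay lower in LL, such as FGF9 (0.23, 0.28 and 0.54). Whether the LL and DP levels are particular to FGF10 was not tested. The LG libraries were above all others and close to each other. After scaling, DP and LL overlapped, at 1.60 to 2.49 in DP and 2.47 to 3.01 in LL, whereas LG had 4.77 to 5.41. The log2 fold change was -0.29 ± 0.13 from LL to DP (limma adjusted p = 0.080), 0.73 ± 0.13 from LL to LG (adjusted p = 0.0015, under the fold threshold) and 1.02 ± 0.13 from DP to LG (adjusted p = 0.00042). The last of these was called but lay at the fold threshold, and it fell below it without DP1 (0.91), without LG2 (0.98), without scaling (0.90) and with scaling to the sum of all but the 10 highest genes (0.67).

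FGF18 (chromosome 20, 3286037 to 3322014), a ligand known from bone and lung, was listed at 0, 0 and 0.03 FPKM in LL, at 0.04, 0 and 2.84 in DP and at 0 in all 3 LG libraries. A single library, DP3, thus held nearly all of its signal, and the gene did not pass the filter. Without the filter its adjusted p in limma was 0.28 in DP against LL.

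FGFR1 (chromosome 27, 12072459 to 12124376), a receptor found in stroma and epithelium, had 3.42, 5.78 and 7.75 FPKM (LL), 28.8, 26.4 and 45.7 (DP) and 7.84, 10.9 and 13.4 (LG). All DP libraries were above all others, and LL and LG overlapped after scaling. The log2 fold change was 1.11 ± 0.27 from LL to DP (limma adjusted p = 0.0064), -0.20 ± 0.27 from LL to LG (95% interval -0.80 to 0.41, adjusted p = 0.57) and -1.31 ± 0.27 from DP to LG (adjusted p = 0.0049). The rise in DP was at the fold threshold. It was 0.88 without LL1 and 0.86 without DP3, with an adjusted p of 0.026 and 0.017, and was then not called. The lower level in LG than in DP was called under all 20 alternative settings.

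The direction of FGFR1 was that of several fibroblast markers, and by their medians also that of the immune and endothelial markers. PDGFRA, a receptor of mesenchymal cells, had log2 fold changes of 1.65 in DP against LL and -2.41 in LG against DP, and DCN, a collagen-binding proteoglycan, had 1.85 and -2.09. The collagen genes COL1A1 and COL3A1 were higher in DP than in LL by 2.37 and 2.16 but had -0.25 and 0.26 in LG against DP, neither of which was called. Over the 10 fibroblast markers the median was 1.83 in DP against LL and -1.24 in LG against DP, with 9 called higher in the former and 4 lower in the latter. The medians were 0.85 and -1.24 over 9 tested immune markers, of which 4 were called higher and 7 lower. They were 0.56 and -0.81 over 8 endothelial markers, of which 2 were called lower in LG against DP. Over 10 luminal epithelial markers they were -0.37 and 0.28. Which cell types FGFR1 came from was not tested.

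FGFR2 (chromosome 26, 10428013 to 10533232), the receptor of FGF7 and FGF10 in epithelium, had 0.81, 1.71 and 1.68 FPKM (LL), 7.76, 11.04 and 6.27 (DP) and 4.51, 6.73 and 4.73 (LG). All LL libraries were below all others, and DP and LG overlapped. It was not called in any comparison, with log2 fold changes of 0.93 ± 0.23 from LL to DP (limma adjusted p = 0.0070, under the fold threshold), 0.60 ± 0.23 from LL to LG (adjusted p = 0.052) and -0.33 ± 0.23 from DP to LG (95% interval -0.84 to 0.18, adjusted p = 0.29). In DP against LL it was called without LL2 (1.06), without DP3 (1.07), with a pseudocount of 0.1 (1.17), without scaling (1.96) and with scaling to the sum of all but the 10 highest genes (1.53). Its highest library was DP2, not DP3. Of the 10 markers of the luminal epithelium, where this receptor is known to act, 2 were called lower in DP than in LL. These were ELF5, a factor of milk-producing cells (-4.19), and EHF (-1.33), while EPCAM (-0.74) and KRT8 (0.28) are examples of the 8 that were not called.

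FGFR4 (chromosome 7, 72026537 to 72037272), a receptor best known from liver, was listed at 0.05, 0.04 and 0.03 FPKM (LL), 0.33, 0.29 and 0.82 (DP) and 0.27, 0.39 and 0.28 (LG). All DP and LG libraries were above all LL libraries, also after scaling, but only DP3 reached 0.5 FPKM and the gene did not pass the filter. Without the filter its log2 fold change was 0.30 ± 0.10 in DP against LL (limma adjusted p = 0.037) and 0.22 ± 0.10 in LG against LL (adjusted p = 0.11). With 2 decimals in the table, LL values of this size carry 1 digit.

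FGFBP1 (chromosome 6, 111397069 to 111400128) is a secreted carrier of FGF ligands, among them FGF1, FGF2 and FGF7. Against LL, these ligands were called higher in DP and LG, and FGFBP1 was called lower. FGFBP1 had 12.5, 7.73 and 22.9 FPKM (LL), 0.40, 3.75 and 4.95 (DP) and 0.40, 0.24 and 0.55 (LG). Every LL library was above every other library, while DP1 lay among the LG libraries. The log2 fold change was -3.18 ± 0.46 in DP against LL (limma adjusted p = 0.00035) and -4.24 ± 0.46 in LG against LL (adjusted p = 8.9e-05), and both were called under all 20 alternative settings. In LG against DP it was -1.05 ± 0.46 (95% interval -2.07 to -0.03, adjusted p = 0.10), and it was called without DP1 (-1.57) and with scaling to the sum of all but the 10 highest genes (-1.32). FGFBP1 was the only one of the 9 genes whose LL libraries were above those of both other stages, also after scaling. The share of all genes with this pattern was not computed, so how rare it is cannot be told.

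**Figure D2:**
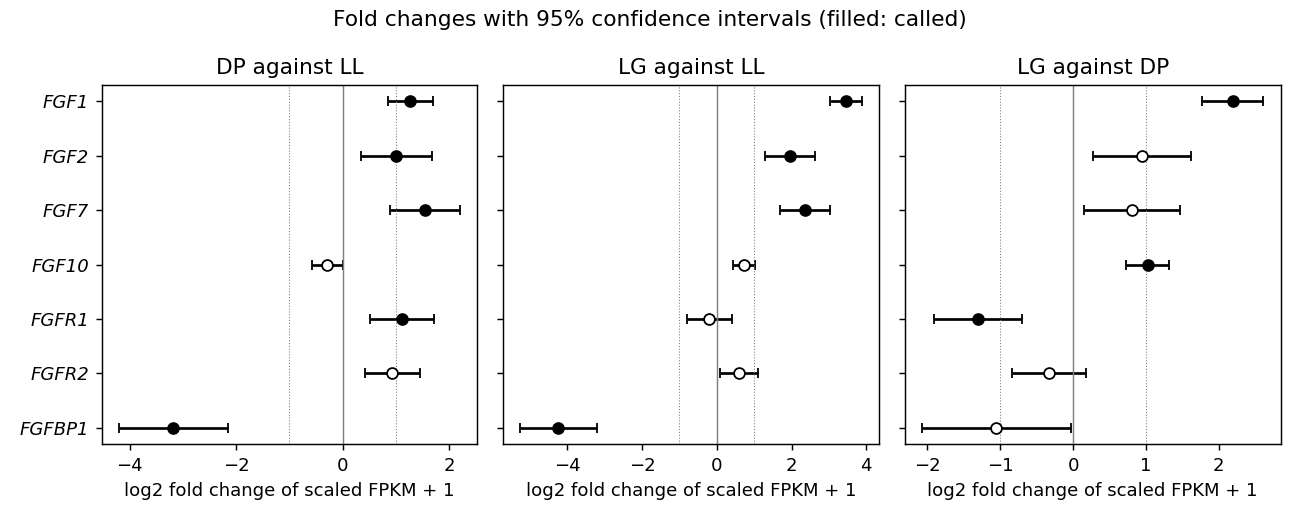
Log2 fold changes of scaled FPKM + 1 (x axis) of the 7 tested FGF genes in the 3 comparisons, with 95% confidence intervals from limma. Filled points were called, and dotted lines mark the fold threshold of 1 in size. FGF1 was called in each comparison, and FGFR2 in none.

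A ratio of 2 genes in one library does not depend on the scaling between libraries. The 8 ratios that could be formed were compared over the 3 stages with an exact permutation test of the F statistic over all assignments of the 9 libraries, adjusted over the 8 ratios, whose smallest p is 0.0036. Tests of 2 stages alone cannot go below 0.1 with 3 libraries each. Of the 8 ratios, 5 had an adjusted p under 0.05.

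The ratio FGF7/FGF10 compared both stromal ligands of FGFR2. It was 0.09, 0.44 and 0.40 (log2) (LL), 2.46, 2.11 and 3.05 (DP) and 1.98, 1.78 and 2.40 (LG) (exact permutation p = 0.0071, adjusted p = 0.029). FGF7 exceeded FGF10 in every library, and all DP and LG libraries were above all LL libraries. FGF7 is among the last rows of the table, described below, and FGF10 is not. Whether both parts of the table are on the same scale was not tested, which also applies to FGF7/FGFR2 and FGFR2/FGFR1. Some other low genes had values close to those of FGF10 in LL and DP, as given above. Whether FGF7/FGF10 and FGF10/FGFR2 reflect a level particular to FGF10 was therefore not tested either. FGF10/FGFR2 was 0.15 ± 0.44 (LL), -1.47 ± 0.60 (DP) and 0.28 ± 0.26 (LG) (exact permutation p = 0.025, adjusted p = 0.040), and all DP libraries were below all libraries of the other stages. The ratio FGF7/FGFR2 was 0.46 ± 0.26, 1.06 ± 1.07 and 2.33 ± 0.53 in LL, DP and LG and did not pass (exact permutation p = 0.061, adjusted p = 0.081). Its wide spread in DP came with DP3, which had 2.24 against 0.80 and 0.15.

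FGF2/FGFR1 was 6.57 ± 0.26 in LL and 6.39 ± 0.24 in DP, which overlapped, and 8.74 ± 0.36 in LG (exact permutation p = 0.014, adjusted p = 0.036). FGF2/FGF1 was 4.55 ± 0.47 (LL), 4.27 ± 0.20 (DP) and 3.01 ± 0.17 (LG) (exact permutation p = 0.018, adjusted p = 0.036). FGFBP1/FGF2 was -5.29 ± 1.01 (LL), -10.5 ± 2.01 (DP) and -13.5 ± 0.60 (LG) (exact permutation p = 0.0036, adjusted p = 0.029). Each of these rests on the listed FGF2 values, which share steps in LL and DP. The receptor ratio FGFR2/FGFR1 was -2.01 ± 0.23, -2.0 ± 0.81 and -1.0 ± 0.44 in LL, DP and LG (exact permutation p = 0.11, adjusted p = 0.13), and DP spanned from -2.87 to -1.26. FGFR4/FGFR2 was -5.08 ± 0.94, -4.25 ± 1.19 and -4.08 ± 0.02 (exact permutation p = 0.44, adjusted p = 0.44).

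**Figure D3:**
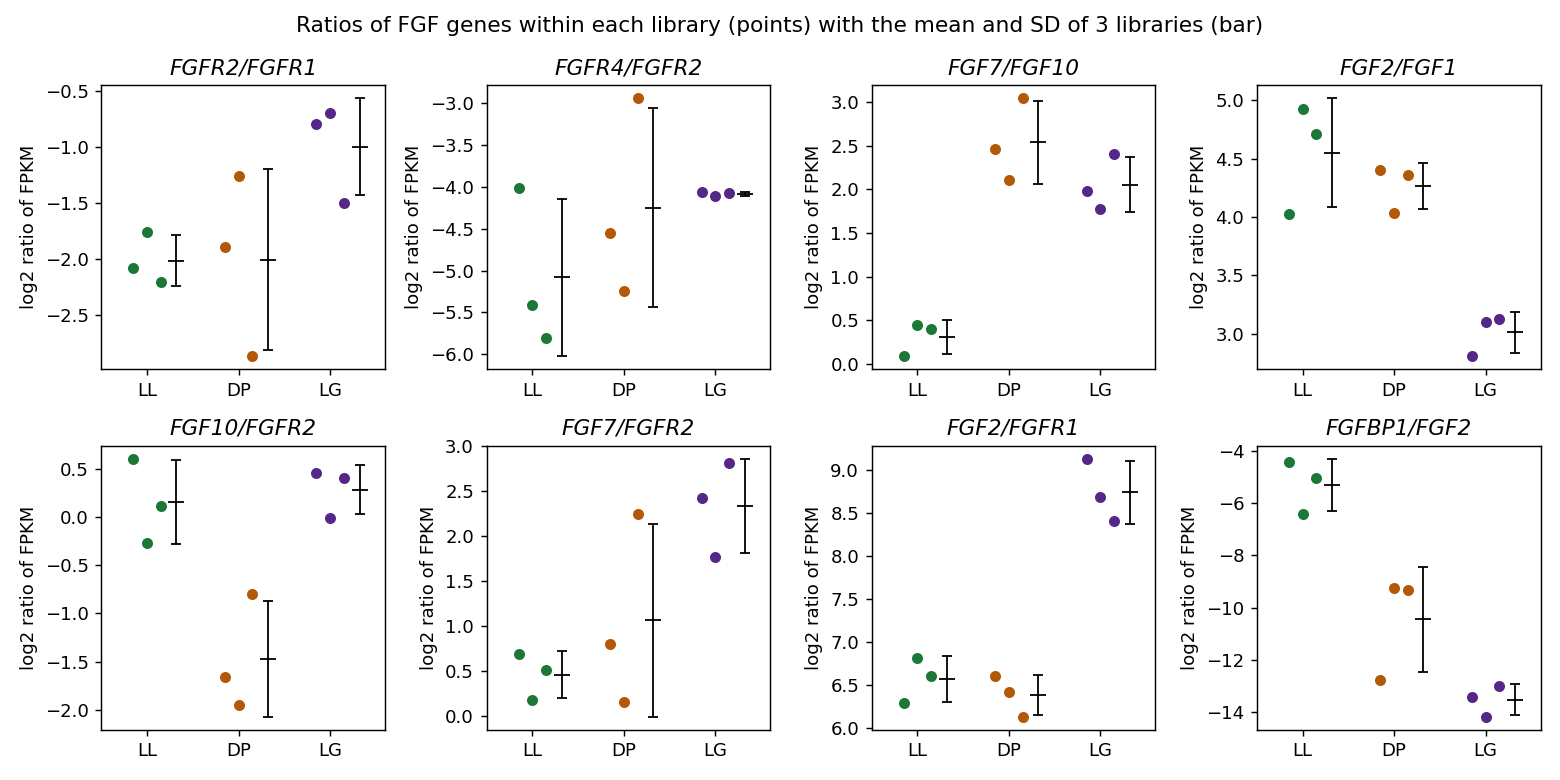
Log2 ratio of the deposited FPKM of 2 FGF genes within each library (y axis, a separate scale for each ratio) in LL, DP and LG. Points are libraries and the bar is the mean with its SD. FGF7/FGF10 was lowest in LL, FGF10/FGFR2 was lowest in DP, and FGF2/FGFR1 was highest in LG.

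The other genes of the pathway were read from lists of 89 genes, of which 67 were tested. In DP against LL, 7 (10.4%) were called higher and 4 (5.97%) lower, both under the 13.8% and 8.79% of all tested genes. In LG against LL, 13 (19.4%) were higher and 5 (7.46%) lower, beside 10.7% and 6.61% of all tested genes. In LG against DP, 8 (11.9%) were higher and 8 (11.9%) lower, beside 6.37% and 6.88%. The median log2 fold change of the 67 genes was 0.22, 0.03 and -0.07 in these comparisons, beside 0.00, 0.02 and 0.01 for all tested genes.

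Of 13 other FGF ligands, 6 were at 0 in every library and only FGF9, a ligand known from embryonic tissues, was tested. FGF9 had 0.35 ± 0.166 FPKM (LL), 1.33 ± 0.308 (DP) and 10.7 ± 0.284 (LG), with a log2 fold change of 2.57 ± 0.14 from LL to LG and 2.34 ± 0.14 from DP to LG. FGF23, a hormone of phosphate balance, was listed at 2.92 FPKM in DP3 and at 0.48 or less in the other 8 libraries. Of 4 FGF homologous factors, which stay inside the cell and do not act on FGF receptors, 2 were tested. FGF13 had 1.42 ± 0.28 FPKM (LL), 2.55 ± 0.582 (DP) and 11.7 ± 0.139 (LG) and was called higher in LG than in both other stages. FGF11 was called higher in DP and LG than in LL, by 1.82 and 2.36. It was listed at 86.7 ± 17.7 FPKM (LL), 810 ± 65 (DP) and 1012 ± 182 (LG), and by its mean it ranked 27th of all genes in DP and 78th in LG. Its 3 LG values were whole multiples of 5.76 FPKM. Both calls and the ranks rest on the values as listed, and the cause of the steps was not tested.

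Of 10 co-receptors and other binding proteins, 6 were tested. KL (klotho), the co-receptor of FGF23, had 0.173 ± 0.0611 FPKM in LL, 0.593 ± 0.382 in DP and 27.8, 22.7 and 11.2 in the LG libraries, and was called higher in LG by 3.64 ± 0.30 against LL and 3.57 ± 0.30 against DP. FGFRL1, a receptor-like protein without the kinase, was called higher in LG by 1.69 ± 0.20 against LL and 1.22 ± 0.20 against DP, the latter lost with scaling to the sum of all but the 10 highest genes (0.93). FLRT2, a membrane protein that binds FGF receptors, was higher in DP than in LL by 1.27 ± 0.24 and lower in LG than in DP by 1.92 ± 0.24 in size. KLB, the co-receptor used with FGFR4, was not called, with -0.64 in DP against LL.

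Heparan sulfate genes changed in both directions. Among 10 tested proteoglycans, the syndecan SDC2 had 66.4 ± 6.8 FPKM (LL), 12.03 ± 2.89 (DP) and 56.3 ± 17.0 (LG). It was called lower in DP (-3.74 ± 0.22) and LG (-1.43 ± 0.22) than in LL, and higher in LG than in DP (2.31 ± 0.22), and its call in LG against LL was lost without scaling (-0.27). SDC4 had 12.7 ± 1.83, 52.6 ± 18.1 and 12.2 ± 3.11 FPKM and was called lower in LG than in LL (-1.17) and DP (-1.75). Its LL and LG levels as deposited overlapped, and its call in LG against LL was lost without scaling (-0.07) and with the sum of all but the 10 highest genes (-0.90). The glypican GPC1 was called higher in DP (1.78) and LG (1.19) than in LL, SDC1 higher in LG than in LL (1.04) and GPC3 lower in LG than in DP (-1.58). Among 11 tested enzymes, the sulfotransferase NDST1 was called higher in LG against LL (1.49) and DP (1.31), whereas SULF2, which removes sulfate groups outside the cell, was called lower (-2.42 and -2.03). NDST2 was called higher in LG than in LL (1.07), HS3ST1, which adds a further sulfate group, higher in DP than in LL (1.31) and SULF1 lower in LG than in DP (-1.60). Under quantile normalization the calls of SDC1 (0.97), NDST2, HS3ST1 (0.90) and SULF1 (adjusted p in limma 0.054) were lost, and that of NDST1 in LG against DP was lost with the sum of all but the 10 highest genes (0.88).

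Among the tested adaptors and kinases, CBL, a ubiquitin ligase for activated receptors, was called higher than in LL in DP (1.59) and LG (1.07), the latter lost under quantile normalization (0.80).

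Of 10 tested feedback inhibitors, 1 was called higher and 2 lower in DP against LL, 2 higher and 1 lower in LG against LL and 1 higher in LG against DP. SPRY2, an inhibitor of receptor signalling, was called higher than in LL in DP (1.47) and LG (1.16), both lost under quantile normalization (0.97 and 0.79). The phosphatase DUSP6 had 13.2 ± 3.33 FPKM (LL), 16.8 ± 3.74 (DP) and 7.84 ± 1.5 (LG). It was called lower than in LL in DP (-1.0), which was lost under each of the other scalings and turned to 0.33 without scaling, and in LG (-1.77), which was lost without scaling (-0.67). DUSP4 was lower in DP than in LL (-2.48) and higher in LG than in DP (2.23), and both calls held under each scaling.

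Of 8 target transcription factors, 1 was called in each comparison. ETV5 was called higher in DP than in LL (1.15), EGR1 higher in LG than in LL (1.72, with 3.01, 13.8 and 2.13 FPKM in the LG libraries) and TBX3 lower in LG than in DP (-1.25). Under quantile normalization the calls of ETV5 (0.72) and EGR1 (1.54, adjusted p in limma 0.087) were lost.

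**Figure D4:**
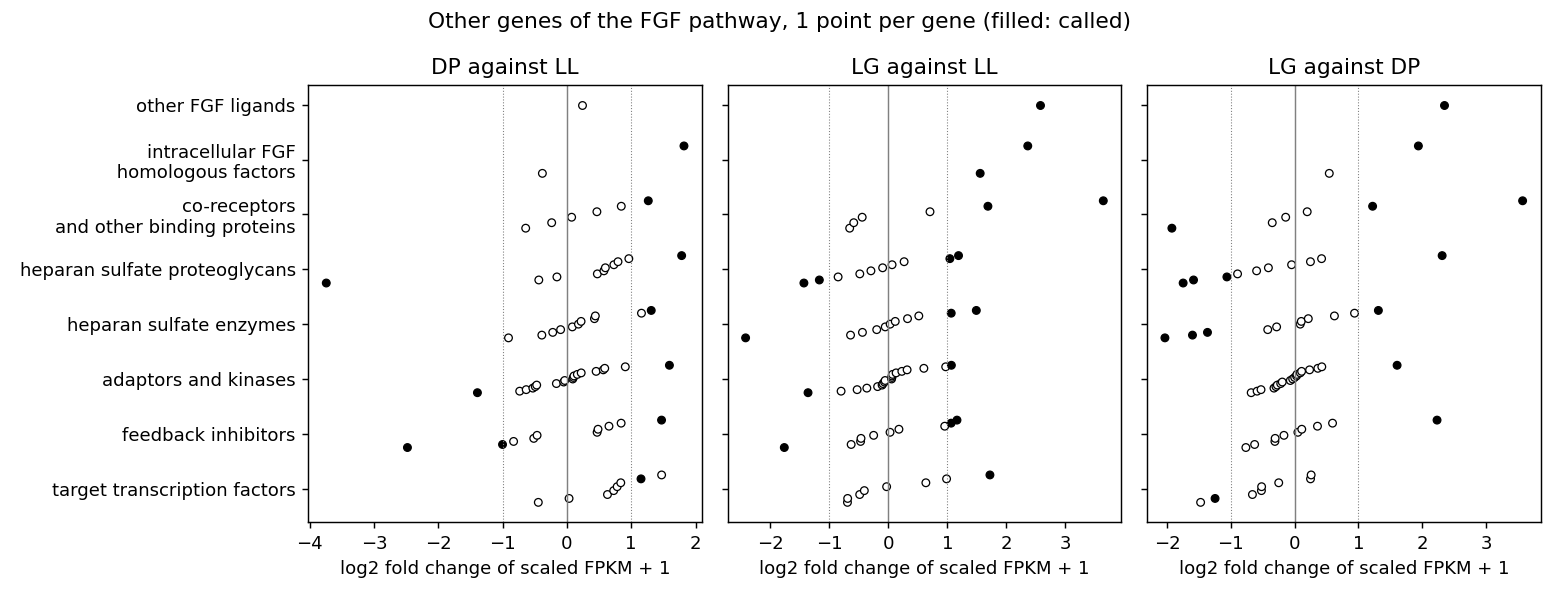
Log2 fold changes of scaled FPKM + 1 (x axis) of 67 other genes of the FGF pathway, 1 point per gene, by list (y axis) and comparison. Filled points were called, and dotted lines mark the fold threshold of 1 in size. Most points lie between the dotted lines, and called genes lie on both sides of 0 in each comparison.

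Genes with a like profile were sought for the 6 called FGF genes by the root mean square (RMS) difference of centred log2 values over the 9 libraries, among 14701 genes. For FGF10 the nearest gene was SSH3 (0.11, where FGF10 itself varied by 0.45 around its mean), followed by C2CD2 and DBNDD2. For FGF7 it was CCND1, encoding cyclin D1 (0.22 against 1.04), followed by DCTPP1 and ADA. For FGFR1 it was LOC102169802 (0.15 against 0.65), followed by ITGB5 and TM4SF1. For FGF2 it was CRYAB (0.23 against 0.87), followed by SLC24A3 and CD86, for FGF1 LOC108636385 (0.37 against 1.44), followed by PTK7 and TRIM7, and for FGFBP1 RASSF4 (0.50 against 1.89), followed by PLA2G2C and ASNS. The points share libraries, and the likeness is a description without a test.

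The position of a gene in the table went with its level. FGF1, FGF2, FGF7, FGFR1 and FGFBP1 are among the last 1387 rows of the table, of which 1382 follow alphabetical order and whose genes had a median of 23.8 FPKM against 2.42 FPKM in the 19034 rows at its start, where FGF10, FGF18, FGFR2 and FGFR4 are. No FGF gene had values that followed those of one of the 8 next genes on either side to within 1% of its range, and the closest of 131 pairs left a residual of 14.7%. Genes with nearly the same values do occur in the table, as CSN1S1, CSN1S2 and CSN3 above. Whether the last rows were made in another way was not tested.

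Scaling between libraries set the direction of the small changes. Without it, the median of all tested genes was shifted by 1.09 from LL to DP, by 0.93 from LL to LG and by -0.18 from DP to LG. FGF10 then had 0.67 in DP against LL and FGFR1 had 0.84 in LG against LL, both below the shift of all genes. FGF1 and FGF7 stayed above the shift, at 2.65 and 2.67 in DP against LL and 4.61 and 3.27 in LG against LL, and FGFBP1 stayed below 0, at -2.05 and -3.34.

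**Figure D5:**
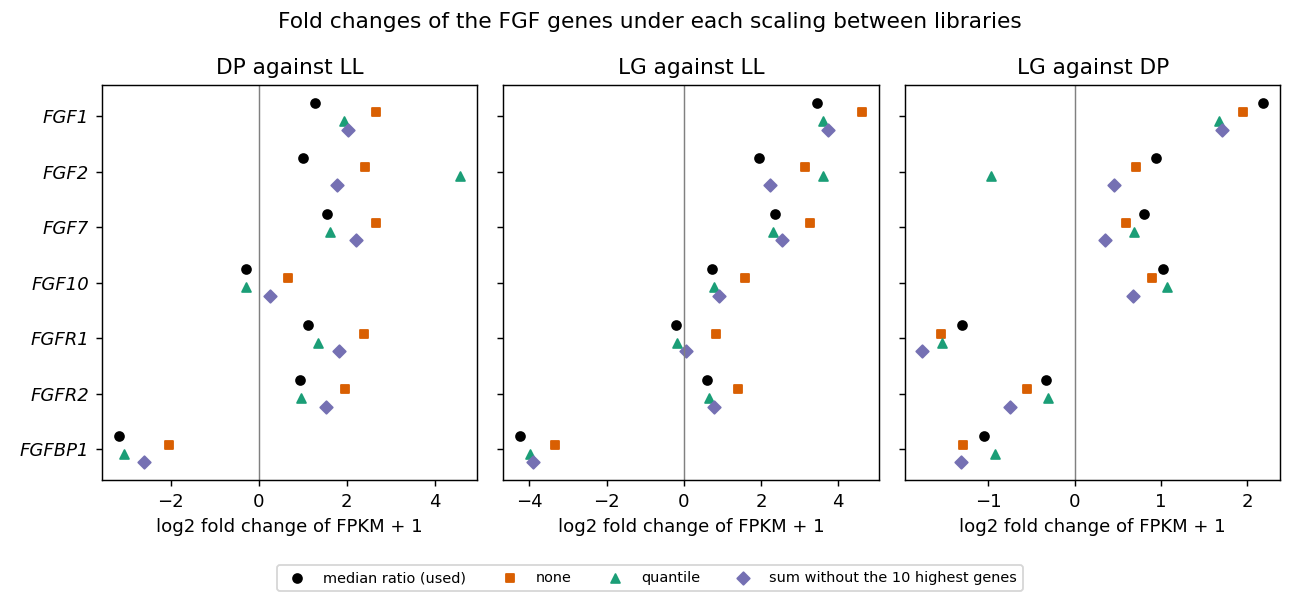
Log2 fold changes of FPKM + 1 (x axis) of the 7 tested FGF genes in the 3 comparisons under 4 ways of scaling between libraries (symbols). The signs of FGF1, FGF7, FGFR2 and FGFBP1 were the same under each, and those of FGF10 in DP against LL, FGFR1 in LG against LL and FGF2 in LG against DP differed.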

How the data were processed

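RNA of whole mammary gland from 9 goats was sequenced from TruSeq libraries. Per the labels, the authors used FastQC, Trimmomatic, HISAT2, SAMtools and HTSeq. The study's methods describe transcript quantification with StringTie, and its results give levels as FPKM. The deposited table names no unit, no build and no step from transcripts to genes, and its values were taken as FPKM of the authors. FPKM keep no counts, so depth per value is unknown and no count test or counting error was computed.

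Values were divided by median-ratio factors from 15905 genes above 0 in every library, 1 was added and log2 taken. A gene entered the test when 3 or more libraries reached 0.5 FPKM, which left 14701 genes, fitted with limma 3.58.1 in R 4.3.3 (eBayes with trend, all 9 libraries, no covariates). Ratios were tested in Python 3.11.15 with numpy 2.4.6. The limma fit was checked on simulated data, and the permutation test on made-up cases with known answers. The members and all lists were chosen with earlier results of these data known. Pathway genes were named per list and comparison, up to 2 called genes with the largest change in each direction provided that the mean of the higher stage reached 2 FPKM. FGF23 and KLB were named after their values were seen. Some pathway genes are counted but not reported here by name. The RefSeq genes of assembly ARS1.2 held 23465 of the identifiers and were used for names only. Alternatives were the scaling, pseudocount, filter, trend, call rule, stages in the fit, replicate block and each library left out.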

Additional observations from a re-analysis of the deposited data

How the results depend on the processing

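Of 421 single-gene results under an alternative, 392 kept their direction and call, 10 lost the call, 14 gained it and 5 changed sign. The sign changes were FGF10 in DP against LL without scaling (0.67) and with the sum without the 10 highest genes (0.25), FGFR1 in LG against LL under the same settings (0.84 and 0.059) and FGF2 in LG against DP under quantile normalization (-0.97). Leaving out 1 library gave 3 to 6 called FGF genes in DP against LL (3 without LL1) and 2 to 5 in LG against DP (5 without DP3). The other pathway genes called in DP against LL numbered 11, but 45 without scaling, 28 with the sum without the 10 highest genes, 18 with a pseudocount of 0.1 and 35 by adjusted p alone. In LG against LL they numbered 18, but 33 without scaling and 35 by adjusted p alone. The calls over all 14701 tested genes moved too. In DP against LL, 2029 were called higher and 1292 lower, but 7979 and 369 without scaling. With the sum without the 10 highest genes they were 4478 and 596. In LG against LL, 1572 were called higher and 972 lower, but 6698 and 345 without scaling. The difference between the highest and lowest stage of the log2 ratios, with 1 library left out, was 0.87 to 1.27 for FGFR2/FGFR1 (gaining adjusted p under 0.05 without DP2), 1.36 to 1.81 for FGF2/FGF1, 1.52 to 2.09 for FGF10/FGFR2 and 2.16 to 2.52 for FGF2/FGFR1, and the last 3 each lost the threshold in at least 1 case (exact permutation tests). With a pseudocount of 1, FGFR4/FGFR2 turned to -1.07. The cause of these shifts was not tested, other than the scaling itself.

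Replicate numbers named different goats, and same-numbered libraries deviated together with correlations of -0.11 to 0.20, so they were not paired. With a replicate block 5, 4 and 3 FGF genes were called, as without it. FGFR3 ratios could not be computed. The 3 goats per stage and the unknown depth limit what low genes such as FGFR4 and FGF18 can show.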
